A study of Homo sapiens with 9 samples.

Results

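The glycolysis and hypoxia-inducible factor (HIF) target genes are 38 genes chosen by symbol: the glucose and lactate transporters, the glycolytic enzymes with their regulators, HIF1A itself, and well-known genes that HIF switches on. All 38 were found among the 62710 gene identifiers of the count table, and 37 had enough reads to be tested. They were followed in HT-29 cells, an established human colorectal adenocarcinoma line, here without any engineered deletion. The 3 conditions had 3 RNA libraries each: non-stimulated cells, cells given 500 ng/mL ADP-heptose for 2.5 h, and cells given 500 ng/mL flagellin for 2.5 h. ADP-heptose is a sugar nucleotide that Gram-negative bacteria make on the way to lipopolysaccharide and that the host kinase ALPK1 senses. Flagellin is the protein of the bacterial flagellum, sensed by the receptor TLR5, and served as another stimulus. No low-oxygen treatment is described for these RNA libraries, although the study used one when it measured CXCL8 release. All results come from 1 cell line.

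Glycolysis turns glucose into pyruvate in the cytosol, and lactate dehydrogenase then turns pyruvate into lactate when it is not sent to the mitochondria. HIF-1 is a pair of proteins, HIF1A and ARNT. When oxygen is present, the EGLN prolyl hydroxylases mark HIF1A and VHL directs it to degradation, so HIF1A is set mostly at the protein level and its mRNA need not follow its activity. When oxygen is low, or when the hydroxylases are otherwise blocked, HIF-1 raises most glycolytic enzymes, glucose and lactate transporters, VEGFA, carbonic anhydrases and EGLN3. Colorectal cancer cells use glycolysis heavily even with oxygen at hand.

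HIF binds a short core, written here as ACGTG or GCGTG, which can lie on either strand and overlaps the E-box CACGTG. RefSeq start sites (GRCh38.p14) gave promoter windows for 34 of the 38 genes (all but VEGFA, NDRG1, BNIP3L and SLC2A3), 62 windows in all with several for some genes, each taken as the 250 bases before a start. The hypoxia core was in 38 of the 62 windows (61.3%), against 43.2% of all 35116 windows of the same length, and 29 genes had it in at least 1 window. The NF-κB consensus, the site of the factor that both stimuli are known to switch on, was in 9 windows (14.5%) of 7 genes, against 10% of all windows. Such matches describe letters only and not binding. The windows below, 1 for each gene, belong to the 4 genes with a RefSeq window that passed the test in any comparison, and to LDHA, a glycolytic HIF target that did not. They are written in the direction of the gene, with capitals for the hypoxia core or its E-box and for the NF-κB consensus. PFKFB3 lies at chr10:6202682-6202931 on the plus strand, with the core on both strands of 1 E-box and 1 NF-κB consensus at its end. The other PFKFB3 window, not shown, lies at chr10:6144671-6144920, just before the annotated gene. It has 1 core and no NF-κB consensus. P4HA2 lies at chr5:132227092-132227341 on the minus strand and holds neither motif. KDM3A lies at chr2:86441121-86441370 on the plus strand with 1 core, ALDOC at chr17:28576896-28577145 on the minus strand with 5, and LDHA at chr11:18394313-18394562 on the plus strand with 5. The windows shown lie inside the span of the annotated gene, except that of LDHA, which begins before it.
PFKFB3: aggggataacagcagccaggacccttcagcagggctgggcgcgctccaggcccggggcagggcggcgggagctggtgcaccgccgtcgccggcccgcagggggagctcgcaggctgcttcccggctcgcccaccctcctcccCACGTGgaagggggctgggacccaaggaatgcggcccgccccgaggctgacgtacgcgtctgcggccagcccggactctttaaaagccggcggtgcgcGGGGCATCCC
P4HA2: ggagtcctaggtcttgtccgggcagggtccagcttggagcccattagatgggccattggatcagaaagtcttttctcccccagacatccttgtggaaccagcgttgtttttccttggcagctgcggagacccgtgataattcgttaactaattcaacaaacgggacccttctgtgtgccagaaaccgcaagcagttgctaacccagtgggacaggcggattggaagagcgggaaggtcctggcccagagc
KDM3A: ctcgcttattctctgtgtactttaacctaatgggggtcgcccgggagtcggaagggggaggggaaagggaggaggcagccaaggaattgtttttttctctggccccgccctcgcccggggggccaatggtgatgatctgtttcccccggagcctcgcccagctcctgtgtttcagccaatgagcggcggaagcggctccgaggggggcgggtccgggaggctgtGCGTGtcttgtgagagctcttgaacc
ALDOC: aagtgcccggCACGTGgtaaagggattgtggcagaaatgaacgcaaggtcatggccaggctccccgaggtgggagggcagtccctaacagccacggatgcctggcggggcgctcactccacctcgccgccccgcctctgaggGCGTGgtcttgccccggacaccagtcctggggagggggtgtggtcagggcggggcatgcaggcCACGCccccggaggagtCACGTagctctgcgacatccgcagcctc
LDHA: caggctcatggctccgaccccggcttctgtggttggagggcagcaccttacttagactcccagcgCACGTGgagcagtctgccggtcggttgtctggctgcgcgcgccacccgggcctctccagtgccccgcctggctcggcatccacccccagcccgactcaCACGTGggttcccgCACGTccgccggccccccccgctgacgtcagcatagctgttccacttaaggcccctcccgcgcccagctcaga

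The non-stimulated libraries held 35040844 to 37537705 counts, the flagellin libraries 30770448 to 38304035 and the ADP-heptose libraries 50054773 to 58272772, and the 38 genes took 0.97% to 1.12% of them. Of 10 markers of colon epithelium, 9 had enough counts to be tested. CDX1 had 0 in every non-stimulated and flagellin library and normalized counts of 5, 2.86 and 10.7 with ADP-heptose. Together the 10 took 9030 to 11900 CPM (counts scaled to a library total of 1e6). At most 10 counts in any library were found for 4 of 6 leukocyte markers, PTPRC and CD3E included, for 4 of 5 fibroblast markers and for 4 of 4 endothelial markers. KRT20, a colon epithelium marker, was higher with ADP-heptose (log2 0.40, edgeR adjusted p 0.00094) under all 17 alternatives. The other 8 tested colon markers were not called. Of the 9 tested, 7 had a log2 fold change above 0. CDX2 went the other way, with 23.3, 12.1 and 36.5 against 36.1, 49.4 and 51.9 without stimulation. LYZ was abundant in every library, and COL1A1, at a low level, was also higher (log2 0.41, edgeR adjusted p 0.0311), a call that held under 12 of 17 alternatives. The part of these genes in the results was not tested. In bulk RNA, fewer cells of a kind and less RNA per cell cannot be told apart. The known response to both stimuli was present. CXCL8, the neutrophil-attracting chemokine, rose by 7.68 on the log2 scale with ADP-heptose (edgeR adjusted p 9.5e-12), and NFKBIA, the inhibitor that NF-κB itself switches on, rose by 3.94 (adjusted p 3.7e-12) there and by 0.68 (adjusted p 0.00024) with flagellin. ADP-heptose replicate 3 stood apart. The SD of its log2 differences from replicates 1 and 2 over 11040 genes was 0.363 and 0.371, against 0.109 between those 2 libraries and 0.131 to 0.165 within the other groups. In replicate 3 the shortest 10% of genes had a mean log2 difference of 0.43 from the non-stimulated mean and the longest 10% one of -0.28, while the other 8 libraries stayed between -0.07 and 0.07. Called members and some other genes are given with and without this library. Other values include it.

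In non-stimulated cells, by the scale below, 7 of the 8 enzymes of the lower part of glycolysis were the most abundant genes of the set. The exception was ENO2 at 7.96 ± 0.543. On a scale of CPM per kilobase of annotated exon, used here to compare genes, levels were 426 ± 9.36 (mean ± SD, n = 3) for GAPDH, 252 ± 6.34 for ENO1, 249 ± 5.24 for PKM, 226 ± 10.9 for TPI1, 170 ± 7.95 for LDHA, 166 ± 2.3 for PGAM1 and 133 ± 1.86 for PGK1. On this scale ENO1 and PKM, and LDHA and PGAM1, did not differ beyond their replicate spread, which does not cover the choice of length. In normalized counts the means were 83222 for PKM and 51806 for ENO1, and 41158 for LDHA and 16561 for PGAM1. SLC2A1, at 19748, was then above PGAM1. The glucose transporter SLC2A1 stood at 107 ± 3.23 and the hexokinases of the set at 15.5 ± 0.21 (HK1) and 9.76 ± 0.406 (HK2). HKDC1, a hexokinase outside the set, had 21.1 ± 1.32. Among the HIF targets outside glycolysis, CA9, a carbonic anhydrase on the cell surface that is hardly made in most normal tissues, reached 84.1 ± 3.61. CA12 stood at 18.7 ± 0.845 and VEGFA at 18.8 ± 0.604. VEGFA was divided by 14431 exon bases and CA9 by 1670. In normalized counts VEGFA had the higher mean, 10569 against 5472 for CA9. HIF1A had 15.3 ± 0.247, EGLN1 2.1 ± 0.171 and EGLN3 2.93 ± 0.268. The least abundant tested genes were PFKFB4, ANKRD37 and ANGPTL4, each under 1. SLC2A3, the neuronal-type glucose transporter, had 0 counts in every library, which allows up to 0.0975 CPM (3 counts) in the shallowest one, and its near-identical copy SLC2A14 also had 0.

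Some of these levels are uncertain. The scale divides by all annotated exon bases of a gene, for PKM 8571 against a mean transcript length of 1436. The order of genes can change with the length used. ALDOA, in most cells the main aldolase, had only 136 to 281 counts per library. It shares 42.3% of its exon bases with a second annotated gene on the same strand, so its values enter only the counts and medians over members. On the opposite strand, CA9 shares 38.5% of its exon bases with ARHGEF39 and ANKRD37 35.2% with UFSP2, and whether strand was used in counting is not stated. Glycolytic genes such as GAPDH, PGAM1 and ENO1 also have processed pseudogenes, and how reads with several matches were treated is not stated.

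ADP-heptose moved few of the 37 tested genes. PFKFB3, VEGFA, P4HA2 and ALDOC rose, KDM3A fell, and the other 32 did not pass the test at a Benjamini-Hochberg adjusted p under 0.05 over all 17412 genes (edgeR quasi-likelihood test). The 4 higher genes (10.8%) compare with 7.48% of all tested genes called higher, and the 1 lower gene (2.7%) with 4.42% called lower. No member reached 2-fold, the size the study required, against 3.37% of all genes; 8 members had an unadjusted p under 0.05, and DESeq2 called 5 without the fold requirement. The ADP-heptose libraries lay wholly above the non-stimulated ones for 8 members, where 15.4% of all genes did so: the 4 called and SLC2A1, PGK1, PKM and SLC16A3. They lay wholly below for 5, where 14.7% did: KDM3A, HK2, ADM, EGLN3 and BNIP3L. The median log2 fold change of the members was 0.08, against 0.01 for all genes, and it was 0.01 without ADP-heptose replicate 3 and -0.06 with library totals as the scaling, where that of all genes was -0.13.

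**Figure D1:**
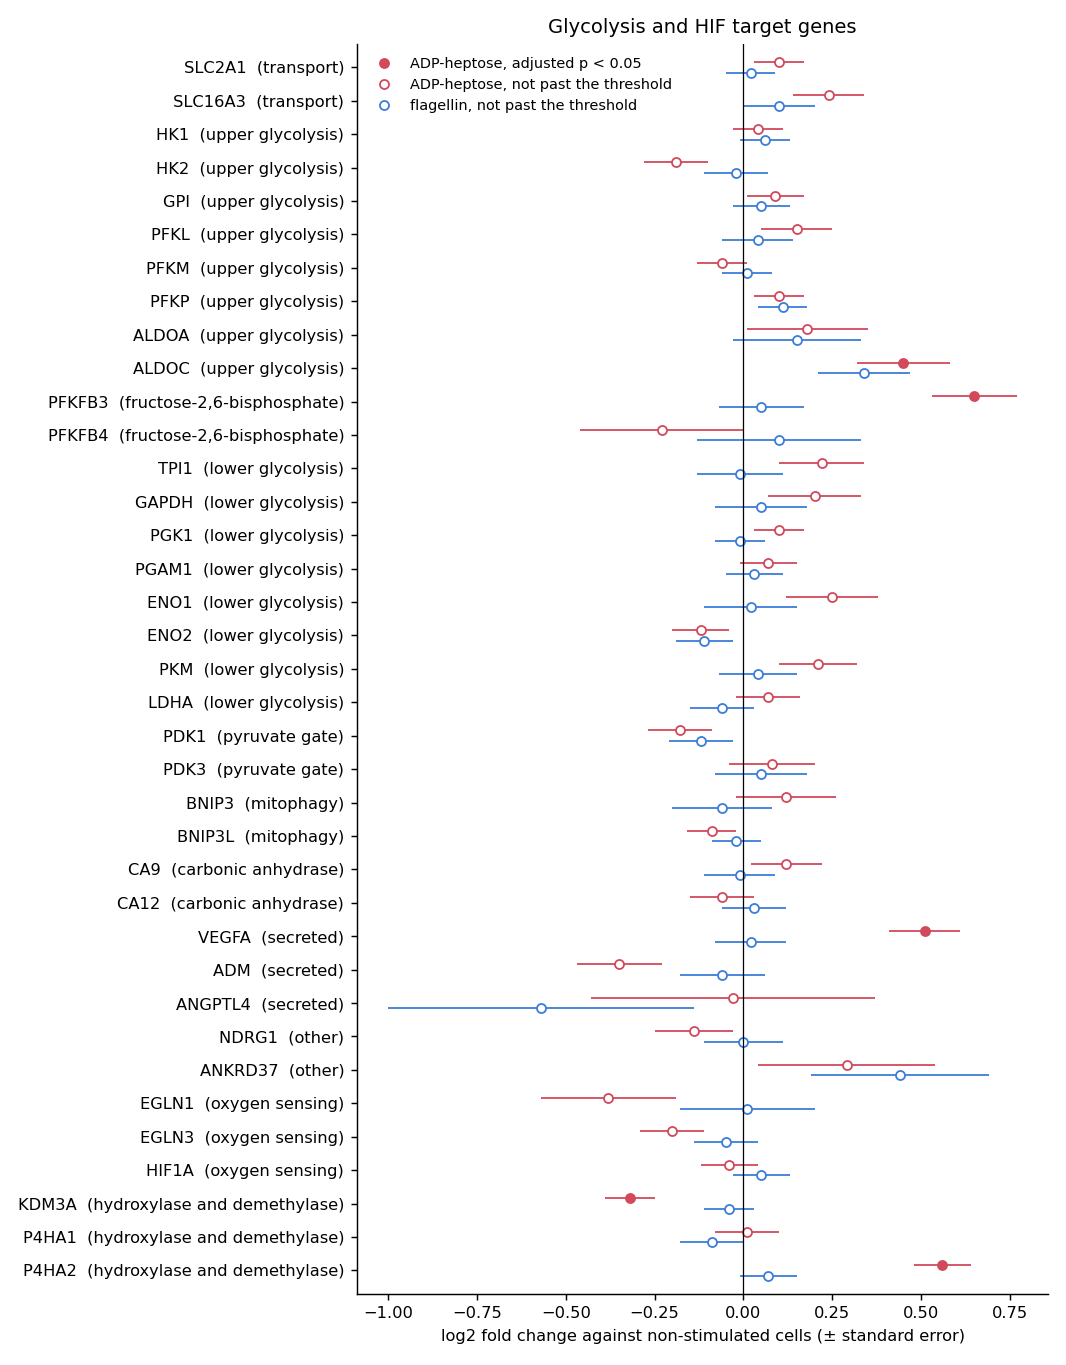
Log2 fold change (x axis) of the 37 tested genes (y axis, ordered by role) against non-stimulated cells, after ADP-heptose (red) and flagellin (blue). Bars are edgeR standard errors and filled points passed an adjusted p of 0.05: PFKFB3, VEGFA, P4HA2 and ALDOC to the right and KDM3A to the left with ADP-heptose, and none with flagellin.

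PFKFB3 gave the largest change. It makes fructose-2,6-bisphosphate, the strongest known activator of phosphofructokinase and so a throttle of glycolysis. Its normalized count (counts scaled by TMM to a common library size) was 3695, 3773 and 2579 in ADP-heptose replicates 1 to 3, against 2193, 2068 and 2134 without stimulation. All ADP-heptose libraries lay above all others, with replicate 3 the closest to them. The log2 fold change was 0.65 ± 0.12 (SE), a 1.57-fold rise with an edgeR adjusted p of 0.00326, and without replicate 3 it was 0.81 (adjusted p 7.8e-14). PFKFB3 (chromosome 10, 6144934 to 6254644, GRCh38) passed the test under all 17 alternatives of processing. Its relative PFKFB4, which does the same reaction, was at 66.7 to 94.3 against 69.6 to 111, with a log2 fold change of -0.23 ± 0.23. Per length, PFKFB3 was 96% of the pair without stimulation and 97.6% with ADP-heptose. PFKFB2, outside the set, had 3.64 ± 0.152 per length without stimulation, against 8.96 ± 0.333 for PFKFB3.

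VEGFA, the growth factor that drives new blood vessels, was also called higher. It read 16698, 16282 and 12232 with ADP-heptose and 10838, 10321 and 10546 without. The groups did not overlap, and replicate 3 was again the lowest of the 3. The rise was 1.43-fold (log2 0.51 ± 0.10, edgeR adjusted p 0.0056), and 0.65 without replicate 3 (adjusted p 1.3e-13). VEGFA (chromosome 6, 43770184 to 43786487) also passed under all 17 alternatives.

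P4HA2, a subunit of the enzyme that hydroxylates prolines in collagen, was the member with the smallest p. Its normalized counts of 1072, 1163 and 1124 stood against 753, 735 and 790, with no overlap and no library apart. The window shown above held neither motif. The rise was 1.47-fold (log2 0.56 ± 0.08, edgeR adjusted p 0.00053), with the same value of 0.56 when replicate 3 was left out, and it passed under all 17 alternatives. P4HA2 (chromosome 5, 132191838 to 132295315) shares 6.4% of its exon bases with an antisense gene of at most 2 counts. P4HA1, the other catalytic subunit in the set, had 866 to 1011 against 886 to 969 and a log2 fold change of 0.01 ± 0.09.

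KDM3A, a demethylase of histone H3 lysine 9 and itself a HIF target, was the only member called lower. It had 2589, 2623 and 2267 with ADP-heptose and 3246, 3015 and 3070 without, with no overlap. The level was 19.8% lower (log2 -0.32 ± 0.07, edgeR adjusted p 0.0139), and -0.25 without replicate 3 (adjusted p 0.00069). The call on KDM3A (chromosome 2, 86440647 to 86492716) was lost without non-stimulated replicate 1 (adjusted p 0.0804) or 3 (0.0534) and in a fit of the 6 compared libraries (0.0615), where no member was called lower.

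ALDOC, the brain-type aldolase, was a borderline case. It had 353, 344 and 457 with ADP-heptose and 295, 283 and 265 without, so the groups did not overlap but replicate 3 was well above the other 2. The log2 fold change of 0.45 ± 0.13 had an edgeR adjusted p of 0.0405. Without replicate 3 it was 0.31 (adjusted p 0.0643), and ALDOC (chromosome 17, 28573115 to 28577264) passed under 6 of the 17 alternatives. It was also lost without any 1 of the flagellin or non-stimulated libraries, with adjusted p from 0.0524 to 0.151. With flagellin it had 339, 341 and 387, also above every non-stimulated library, with a log2 fold change of 0.34 ± 0.13 and an unadjusted p of 0.024 that did not survive adjustment (adjusted p 1).

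**Figure D2:**
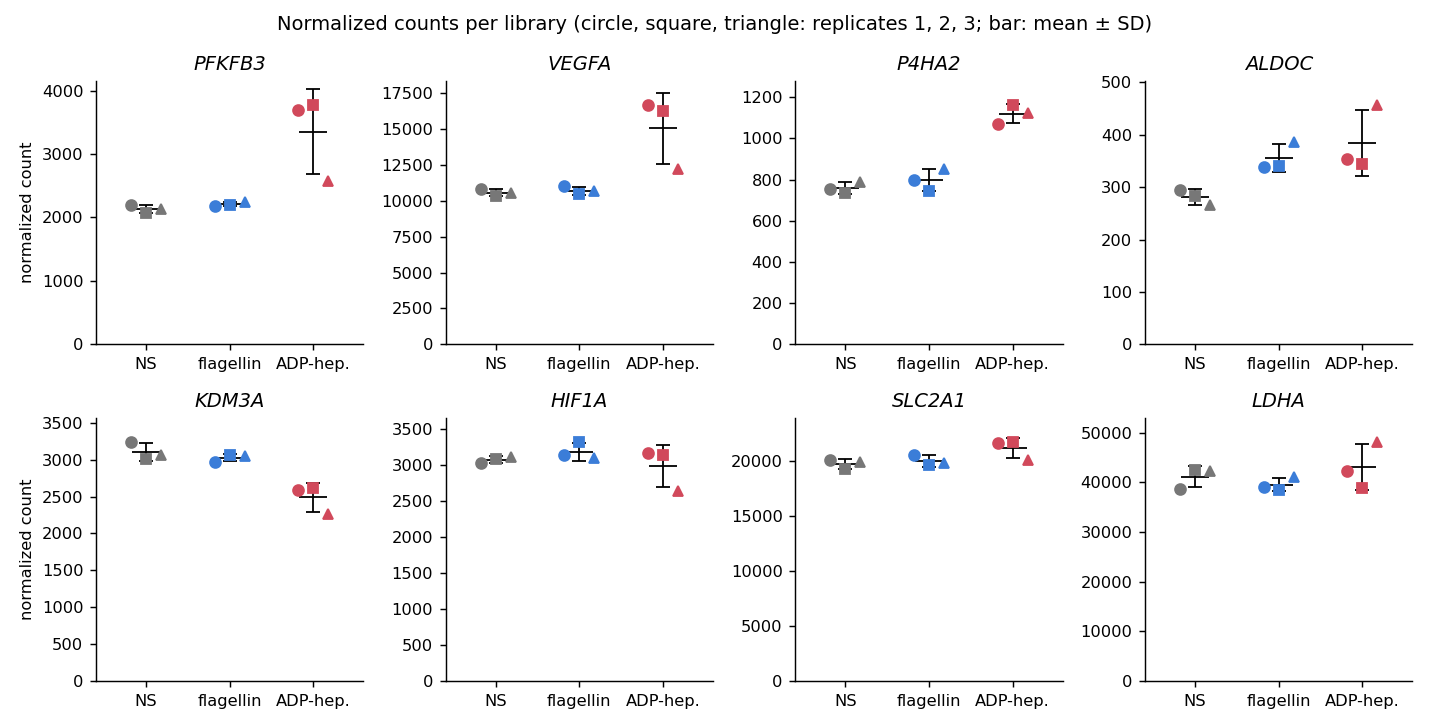
Normalized counts (y axis, from 0) of 8 genes in each library of non-stimulated (NS), flagellin and ADP-heptose cells, with group mean ± SD. PFKFB3, VEGFA and P4HA2 stand above both other groups and KDM3A below them in all 3 ADP-heptose libraries, while HIF1A and LDHA overlap between groups.

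The chain of enzymes from hexokinase to lactate dehydrogenase, 16 genes here, showed no call other than ALDOC. The median log2 difference of these 16 from the non-stimulated mean was 0.01 in ADP-heptose replicate 1, 0.00 in replicate 2 and 0.25 in replicate 3, where 13 of the 16 lay above 0. ENO1, the main enolase, read 53807, 52709 and 78211 against 51731, 53495 and 50192, and GAPDH 49053, 49459 and 72493 against 48851, 49090 and 50486. In both, replicates 1 and 2 lay within or close to the non-stimulated range and replicate 3 far above it. Their log2 fold changes of 0.25 ± 0.13 and 0.20 ± 0.13 became 0.04 and -0.00 without replicate 3. PKM and TPI1 did the same, from 0.21 to 0.06 and from 0.22 to 0.03.

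Transcript length moved with part of these values. ENO1, GAPDH and TPI1, at 1141, 1260 and 962 bases, lie under the members' median annotated transcript length of 1294 bases, while PKM lies above it. Split at this median, the 19 shorter members had a median difference of 0.25 in replicate 3 and the 18 longer ones 0.16. In replicates 1 and 2 the shorter ones were at -0.01 and -0.03 and the longer ones at 0.02 and 0.00. Not every member went with its length: PFKL, at 2503 bases, lay at 0.42 in replicate 3. EGLN1, with a mean transcript length of 3963 bases, lay at -1.03 in replicate 3 and at -0.07 and -0.21 in replicates 1 and 2. PFKFB3 (1946 bases) and VEGFA (1562 bases) also had their lowest ADP-heptose value there. With offsets for length and GC content the median of the members was -0.02, against -0.04 for all genes.

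**Figure D3:**
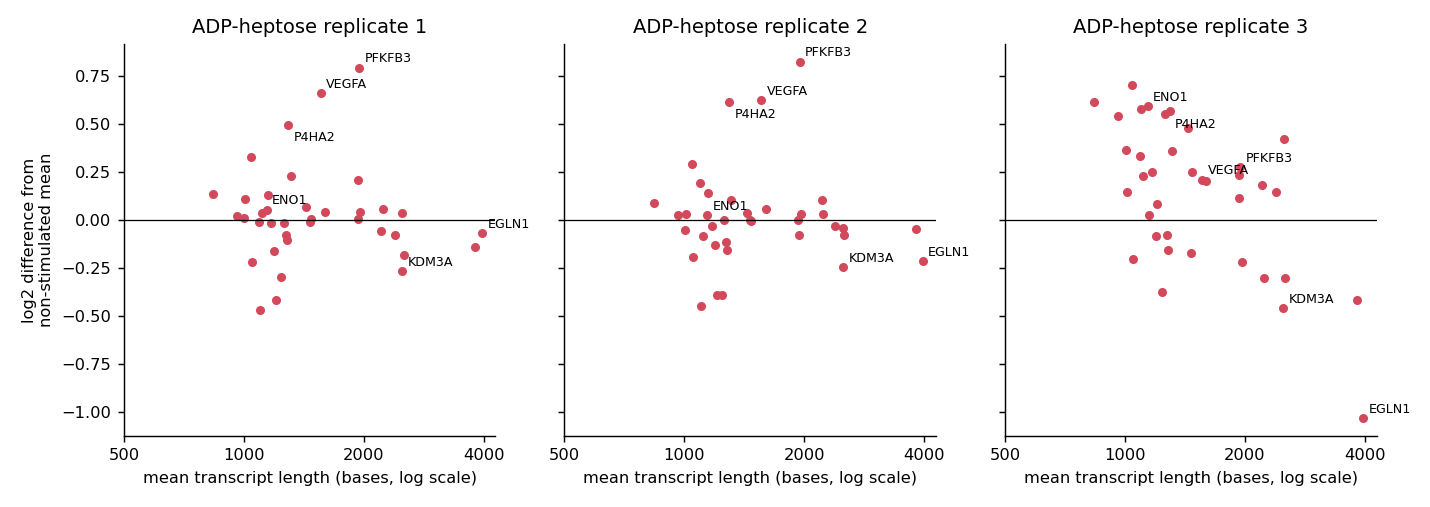
Log2 difference from the non-stimulated mean (y axis) against mean annotated transcript length (x axis, log scale) for the 37 tested genes in each ADP-heptose library. PFKFB3 and VEGFA stand out in replicates 1 and 2, while in replicate 3 short genes such as ENO1 lie high and EGLN1 lies at -1.03.

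The entry and exit of the pathway gave no call. SLC2A1, the basal glucose transporter, had 21617, 21763 and 20113 with ADP-heptose against 20105, 19269 and 19869. Every ADP-heptose library was above every non-stimulated one, yet the log2 fold change of 0.10 ± 0.07 did not pass (edgeR adjusted p 0.367). Without replicate 3 it was 0.14 and passed (adjusted p 0.0194), so the call for SLC2A1 depends on that library. HK2, the hexokinase most often tied to HIF, had 2091, 2228 and 1729 against 2401, 2275 and 2235, wholly below, with -0.19 ± 0.09 (adjusted p 0.219) and -0.09 without replicate 3. LDHA, which makes lactate, had 42252, 38897 and 48190 against 38721, 42555 and 42199, with overlap and a log2 fold change of 0.07 ± 0.09 (adjusted p 0.667). The lactate exporter SLC16A3 did not pass either. It had 931 to 1111 against 822 to 902, wholly above, with 0.24 ± 0.10 (adjusted p 0.157). PDK1 and PDK3, which keep pyruvate out of the mitochondria, were at -0.18 ± 0.09 and 0.08 ± 0.12.

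**Figure D4:**
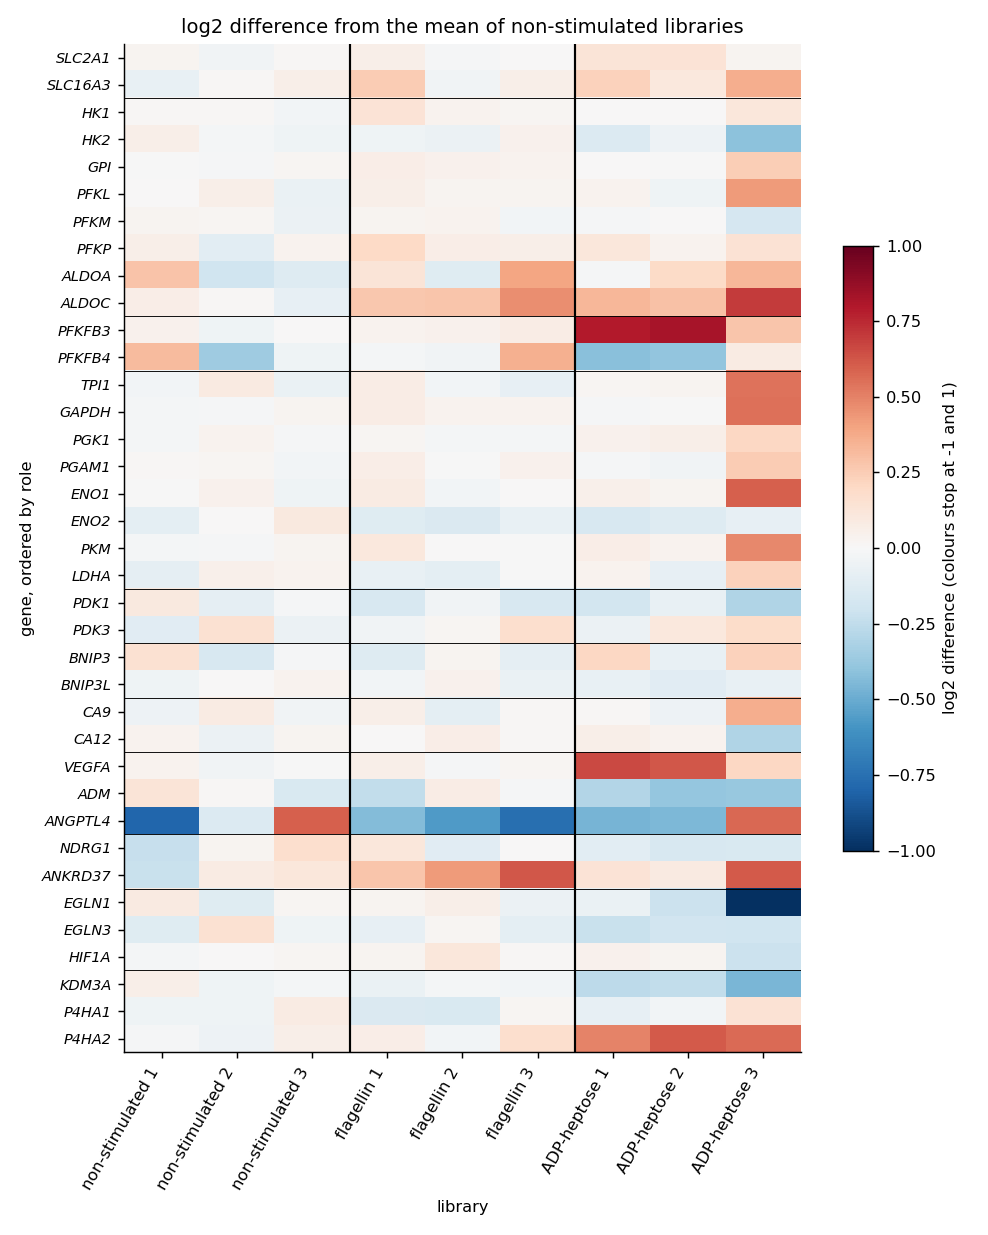
Log2 difference of each tested gene (rows, ordered by role) from the mean of the non-stimulated libraries, in each of the 9 libraries (columns). PFKFB3, VEGFA and P4HA2 are red in all 3 ADP-heptose libraries, whereas GAPDH, TPI1, ENO1 and PKM are red in replicate 3 and near 0 in replicates 1 and 2.

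Where a step has several enzymes, their shares per length are given as a description, without a test. HK1 made up 61.4% ± 0.689 of HK1 and HK2 without stimulation, 62.7% ± 1.61 with flagellin and 65.2% ± 3.92 with ADP-heptose. PFKP was the main phosphofructokinase, at 58.6% ± 2.17, 60% ± 0.998 and 59.1% ± 1.52 of the 3 subunits, ahead of PFKL and PFKM. ENO1 took 96.9% to 97.6% of ENO1 and ENO2 in the group means. Related genes outside the set, among them HKDC1 and ENO3, were left out of these shares.

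The oxygen-sensing genes of the set gave no call. HIF1A mRNA was 3171, 3140 and 2645 with ADP-heptose, 3136, 3325 and 3091 with flagellin and 3025, 3079 and 3118 without stimulation. The groups overlapped, and the log2 fold change with ADP-heptose was -0.04 ± 0.08 (95% interval -0.22 to 0.13, edgeR adjusted p 0.774). EGLN3, the prolyl hydroxylase that responds most to HIF, had 721, 734 and 731 against 772, 933 and 813, wholly below but not past the test (-0.20 ± 0.09, adjusted p 0.178). EGLN1 had 567, 512 and 291 against 632, 546 and 603, with -0.38 ± 0.19 (adjusted p 0.238), which was -0.14 without replicate 3. The mRNA says nothing on the amount or activity of HIF1A protein, which was not measured in these libraries.

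Of the classical HIF targets outside glycolysis, VEGFA and P4HA2 were the only ones called higher. CA9 had 5511, 5273 and 7047 against 5285, 5797 and 5334, overlapping, with 0.12 ± 0.10 (edgeR adjusted p 0.495) and -0.02 without replicate 3. ADM, a vasodilator peptide that is a sensitive hypoxia marker in many cells, lay lower in every ADP-heptose library at 260 to 277 against 306 to 371, with -0.35 ± 0.12 (adjusted p 0.08). The mitophagy receptors BNIP3 and BNIP3L were at 0.12 ± 0.14 and -0.09 ± 0.07, NDRG1 at -0.14 ± 0.11 and CA12 at -0.06 ± 0.09. The low-count genes ANKRD37 and ANGPTL4 were at 0.29 ± 0.25 and -0.03 ± 0.40, and at 0.12 and -0.45 without replicate 3. For all 32 members not called, the 95% interval of the change lay within 2-fold either way. For 27 of them it lay within 1.5-fold, the others being ADM, ANGPTL4, ANKRD37, EGLN1 and PFKFB4.

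Flagellin moved no member past the test. Across all genes it called 0.368% higher and 0.0115% lower, so calls were rare. By edgeR, 0 members were called and 1 had an unadjusted p under 0.05, and DESeq2 called 0. The flagellin libraries lay wholly above the non-stimulated ones for 5 members (7.66% of all genes did so): HK1, GPI, ALDOC, GAPDH and ANKRD37. They lay wholly below for 0 members (5.19% of all genes). The median log2 fold change was 0.02, and of the genes called with ADP-heptose, the log2 fold change was 0.05 ± 0.12 for PFKFB3, 0.02 ± 0.10 for VEGFA, 0.07 ± 0.08 for P4HA2, 0.34 ± 0.13 for ALDOC and -0.04 ± 0.07 for KDM3A. PFKFB3 had 2181, 2193 and 2239 with flagellin, VEGFA 11019, 10456 and 10688, and P4HA2 796, 747 and 852, all close to the non-stimulated values. The 95% interval lay within 1.5-fold for 33 of the 37, with ALDOC, ANGPTL4, ANKRD37 and PFKFB4 beyond it.

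The stimuli were also compared directly, at the same mass dose and time. Both contrasts with ADP-heptose use the same 3 ADP-heptose libraries, so they are not independent. PFKFB3 was higher with ADP-heptose than with flagellin by 0.60 ± 0.12 on the log2 scale (95% interval 0.34 to 0.87, edgeR adjusted p 0.007), P4HA2 by 0.49 ± 0.08 (0.31 to 0.67, adjusted p 0.00194) and VEGFA by 0.49 ± 0.10 (0.27 to 0.71, adjusted p 0.00922). KDM3A was lower, at -0.28 ± 0.07 (-0.44 to -0.12, adjusted p 0.0366). Without ADP-heptose replicate 3 the 4 values were 0.77, 0.50, 0.63 and -0.20, and SLC2A1 was called too, at 0.13 (adjusted p 0.0381). The 3 members called higher compare with 5.4% of all genes called higher, and the 1 called lower with 2.76%. None reached 2-fold (2.35% of all genes did): edgeR had 5 members with an unadjusted p under 0.05 and DESeq2 called 4. ALDOC did not differ between the stimuli past the test (0.11 ± 0.13, adjusted p 0.654). The VEGFA call held under 14 of 17 alternatives and was lost without flagellin replicate 2 (adjusted p 0.0622) or 3 (0.0555) and with library totals as the scaling (0.0664, log2 0.38). The KDM3A call held under 7 and was lost without ADP-heptose replicate 1, any flagellin library or any non-stimulated library (adjusted p 0.0625 to 0.169), where 0 members were called lower.

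The other genes of these pathways were followed as 5 lists with 105 tested genes. Neither the other glycolysis genes (14 tested) nor the pentose phosphate genes (9 tested) had any call with edgeR, against 7.48% of all genes higher and 4.42% lower. Of 29 genes of pyruvate entry and the citric acid cycle, 1 rose and 2 fell. Of 16 other genes of the HIF axis, 2 rose and 2 fell, and of 37 other HIF targets, 6 rose and 4 fell. The median log2 fold changes of the 5 lists, in that order, were -0.01, 0.09, 0.06, 0.11 and -0.07, against 0.01 for all genes. Without ADP-heptose replicate 3 they were 0.02, 0.01, -0.00, 0.06 and -0.04, against -0.00 for all genes. Flagellin gave 0 calls in these lists. Together the lists had 17 calls with ADP-heptose, and 33 without ADP-heptose replicate 3, where 11.2% of all genes were called higher and 7.07% lower. HIF targets then had 10 higher and 9 lower, the other HIF axis genes 4 and 2, and the pyruvate and citric acid cycle genes 2 and 3. The other glycolysis genes had 1 higher (HKDC1) and 2 lower (GPD1L and GALM), and the pentose phosphate genes 0. Against flagellin the lists had 15 calls, and 24 without replicate 3, where 10% of all genes were called higher and 5.14% lower.

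Both called genes of the pyruvate gate fell. PDK4, a kinase that shuts the pyruvate dehydrogenase complex, had 257, 266 and 238 against 488, 395 and 431 (log2 -0.79 ± 0.11, edgeR adjusted p 0.00034). PDP2, the phosphatase that opens the same complex, had 328, 349 and 282 against 568, 526 and 546 (-0.77 ± 0.12, adjusted p 0.00076). OGDH, a subunit of the 2-oxoglutarate dehydrogenase of the citric acid cycle, rose by 0.37 ± 0.06 (adjusted p 0.00152). In none of the 3 did the groups overlap.

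On the HIF axis, the called genes were a hydroxylase, VHL, a competitor and the partner of HIF1A. EGLN2, a prolyl hydroxylase that hypoxia does not raise, went to 831, 801 and 633 from 343, 302 and 331, a 2.32-fold rise (log2 1.21 ± 0.12, edgeR adjusted p 1.6e-05). It shares 30.6% of its exon bases with a readthrough gene that had 0 counts. VHL rose to 3240, 3180 and 4051 from 2551, 2587 and 2330 (0.49 ± 0.10, adjusted p 0.00566), and by 0.37 without ADP-heptose replicate 3 (adjusted p 9.4e-06). CITED2, which competes with HIF1A for the coactivators CBP and p300, fell to 231, 253 and 245 from 472, 412 and 434 (-0.86 ± 0.10, adjusted p 7.9e-05). ARNT, the partner of HIF1A, fell by 0.33 on the log2 scale (-0.33 ± 0.09, adjusted p 0.0361), a call that held under 9 of 17 alternatives and was lost without ADP-heptose replicate 1, flagellin replicate 2 or 3, or any non-stimulated library.

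Among the other HIF targets, the changes were larger than in the 38 genes but ran both ways. BHLHE40, a transcriptional repressor tied to the circadian clock, rose 5.73-fold, with 4772, 4823 and 4178 against 855, 734 and 814 (log2 2.52 ± 0.09, edgeR adjusted p 2.5e-09). ERRFI1, an inhibitor of the EGF receptor, had 16836, 17541 and 14783 against 7252, 5952 and 6266 (1.34 ± 0.09, adjusted p 5.9e-07). DDIT4, an inhibitor of mTORC1, had 10094, 10184 and 10557 against 5311, 5268 and 4485 (1.03 ± 0.08, adjusted p 2.7e-06). In these 3 genes every ADP-heptose library lay above every other library. DDIT4 shares 41.2% of its exon bases with an antisense gene.

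Downward, PPP1R3B, which brings phosphatase to glycogen, had 1186, 1249 and 975 against 2425, 2281 and 2517 (log2 -1.08 ± 0.09, edgeR adjusted p 6.5e-06). HILPDA, a lipid droplet protein, had 386, 376 and 463 against 617, 707 and 650 (-0.69 ± 0.11, adjusted p 0.00092), and the nuclear receptor RORA 102, 118 and 72.9 against 195, 181 and 174 (-0.90 ± 0.18, adjusted p 0.0065). In none of these did the groups overlap. Further calls were JMJD6 and ERO1A upward, at 0.57 and 0.31, and ZNF395 downward, at -0.49. The ERO1A call held under 6 of 17 alternatives, and among fits with a library left out it held only without ADP-heptose replicate 3. ZNF395 shares 34.9% of its exon bases with FBXO16 on the same strand. With flagellin the same genes were not called, for example BHLHE40 at 0.18 ± 0.09, ERRFI1 at 0.15 ± 0.09 and PPP1R3B with 2235, 2362 and 2237.

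**Figure D5:**
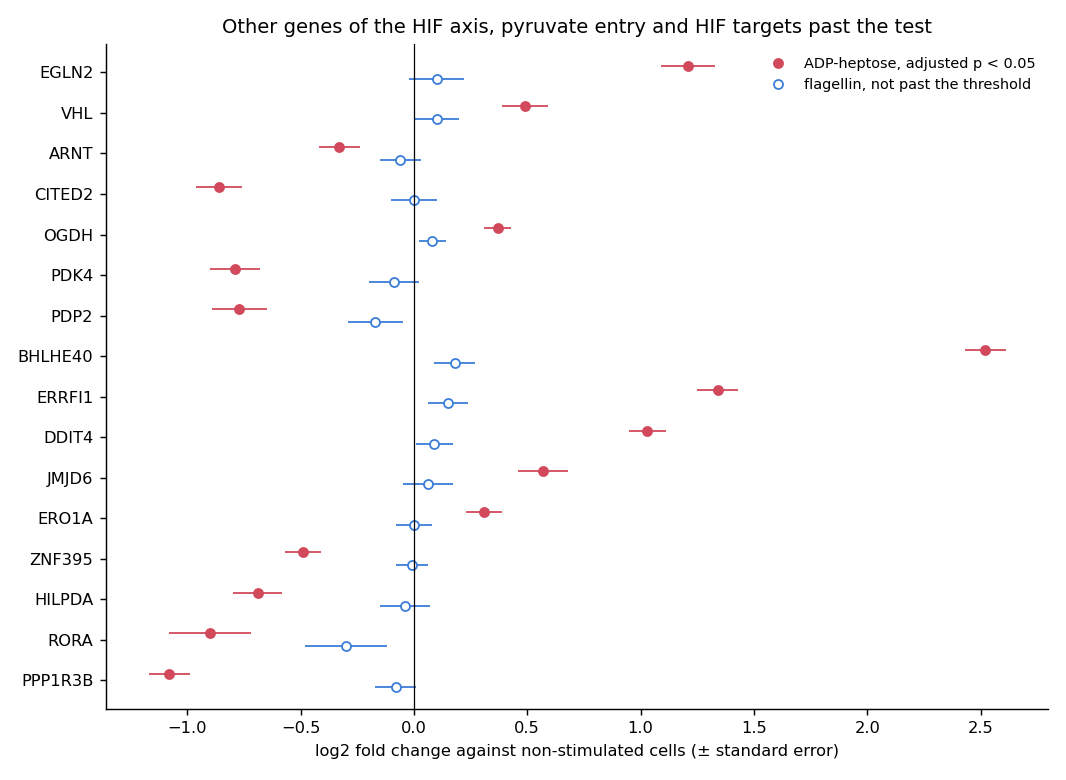
Log2 fold change (x axis, with edgeR standard errors) against non-stimulated cells of 16 genes of the other lists that passed the test with ADP-heptose (red), with the same genes after flagellin (blue, open, not past the threshold). BHLHE40 lies farthest to the right at 2.52 and PPP1R3B farthest to the left at -1.08.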

How the data were processed

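Poly(A) RNA was sequenced for the authors by a service provider as paired reads, aligned with HISAT2 and assigned to genes by featureCounts. The 9 deposited columns are raw counts, 1 per library, that the authors left unnormalized. Versions, genome build, annotation, strandedness and the treatment of reads with several matches are not given in the sources used here. Of 62972 lines, 232 identifiers listed more than once were kept once. GENCODE release 29 (GRCh38) gave positions and lengths for 92.9% of identifiers.

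All 9 libraries were fitted together with edgeR 4.0.16 in R 4.3.3 (TMM, filterByExpr, robust quasi-likelihood F test), giving 17412 tested genes and 3 comparisons. Adjusted p are Benjamini-Hochberg over all of them. Normalized counts are counts scaled to a common effective library size. The study describes independent experiments. An exact permutation test of 3 against 3 cannot go below p 0.1, so p come from this fit. Deviations from the group means correlated from -0.447 to 0.293 between same-numbered libraries, which were not taken as pairs. With 3 libraries in each group this does not settle whether they share an experiment. The fit was tested on simulated data with the same spread between replicates set for every gene and no library apart. That test does not cover a library such as ADP-heptose replicate 3.

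Genes named with all values are members called with at least a 1.25-fold change, 8 chosen members whatever their result, and, in the other lists, at most the 6 largest changes of at least 1.5-fold; further genes were named after their values were seen. Members and lists were chosen with earlier results of these data known. Alternatives were other scalings, DESeq2 1.42.0, no filter, 6 libraries, the replicate block, each library left out and, added after the data were seen, offsets for transcript length and GC. Figures used matplotlib 3.10.9. The values of 1 gene of the other lists are not reported here.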

Additional observations from a re-analysis of the deposited data

How the results depend on the processing

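Over the alternatives, 3 to 5 members were called higher with ADP-heptose against non-stimulated cells and 2 to 4 against flagellin. Under each of them 0 members reached 2-fold and 0 were called with flagellin. Of 2584 comparisons of a single gene's result with an alternative, 2521 kept their side of the threshold (123 of them uncalled with a changed sign), 51 lost the call, 12 gained one and 0 reversed a call. With library totals in place of TMM the median of all genes with ADP-heptose moved from 0.01 to -0.13, the median of the members to -0.06 (to -0.08 against flagellin), and 4 members were called lower. Members called lower with ADP-heptose numbered 2 without the filter on low counts, 0 with only 6 libraries, 4 with length and GC offsets (ENO2, ADM, EGLN3 and KDM3A), and 0 to 1 with a library left out. Against flagellin they numbered 0 with 6 libraries, 0 to 1 with a library left out, and 0 with the replicate block, where ALDOC, ARNT and ERO1A against non-stimulated cells were lost too. Whether libraries with the same replicate number come from the same experiment is not stated. The block changed no other call of a member. Calls in the other lists ranged from 15 to 33 with a library left out with ADP-heptose, the highest without ADP-heptose replicate 3, and from 12 to 24 against flagellin, where the offsets gave 23. The flagellin median ranged from -0.01, without flagellin replicate 1, to 0.03 with a library left out. The causes were not tested. The widest standard error of a member was 0.43 on the log2 scale, for ANGPTL4 with flagellin, against a median of 0.1.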
